A study of Mus musculus with 4 samples.

Results

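R-spondins are secreted proteins that make cells more sensitive to Wnt signals, and the genes studied here are 3 of them, Rspo1, Rspo2 and Rspo3, together with 7 genes known as transcriptional readouts or feedback regulators of the Wnt/β-catenin pathway: Axin2, Sp5, Rnf43, Znrf3, Lef1, Nkd1 and Notum. They were chosen by symbol, with earlier results of these data known, and all 10 were found among the 40630 genes of the deposited table. The data were 4 RNA-seq libraries of cortex dissected from C57BL/6 mouse embryos at E13.5. In 2 libraries, replicates 4 and 5, the genotype was Upf2fl/fl Emx1-Cre+, a conditional knockout (cKO) of Upf2, and in the other 2, control replicates 8 and 9, it was Upf2fl/+ Emx1-Cre-. Every library therefore carried at least 1 floxed Upf2 allele, and Cre and the count of floxed alleles differed together. Emx1-Cre is a recombinase active in the progenitors of the dorsal telencephalon and their descendants, so cells of other origin keep Upf2, which encodes an adaptor of nonsense-mediated mRNA decay. Whether each library came from its own embryo is not in the labels, so the p-values may measure technical spread only.

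The study asked how nonsense-mediated decay and TRP53 act on progenitor maintenance and brain size. Values are transcripts per 1000000 (TPM), a level scaled by gene length and by library. Reads recovered from them came to between 33537843 and 36453920 in cKO-labelled samples and between 38274835 and 41680052 in controls. Upf2 itself had 27.8 and 42.2 TPM in cKO-labelled samples and 23.7 and 41.3 TPM in the controls, with a log2 fold change of 0.13 ± 0.36 (SE; limma adjusted p = 0.853). Summed over the whole gene this does not check a deletion of some exons, and the groups are called cKO-labelled and control. Control replicate 9 stood apart by GC content: with genes in 5 equal classes, its median deviation from each gene's mean was 0.65 (log2) in the class of lowest GC and -0.48 in that of highest GC, while the other 3 libraries lay between -0.41 and 0.19 in those classes. Markers of neocortical progenitors summed to 2268 and 1929 TPM in cKO-labelled samples and 2477 and 2370 TPM in the controls. Of that sum, Nes and Vim made up 646 and 603 TPM in cKO-labelled replicate 4 and 460 and 477 TPM in replicate 5. Emx2 and Lhx2 of the same list fell. Markers of projection neurons summed to 834 and 1036 TPM against 865 and 1069 TPM. No member of either list was under 1 TPM in both libraries of a group.

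In the canonical pathway, a Wnt ligand brings a Frizzled receptor and an LRP co-receptor together, which stops the Axin-APC-GSK3 complex from marking β-catenin for destruction, and β-catenin then activates genes with factors of the TCF/LEF family. The membrane ubiquitin ligases RNF43 and ZNRF3 remove Frizzled from the cell surface, and an R-spondin bound to an LGR receptor clears these ligases. Several targets of the pathway also restrain it, so their transcripts serve both as brakes and as readouts. In the embryonic forebrain, the cortical hem at the medial edge of the cortex is a known source of Wnt ligands and R-spondins, and it borders the choroid plexus and the overlying meninges.

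Promoters of 3 of these genes are shown because their transcripts fell together and because Sp5 and Axin2 are textbook targets of β-catenin. RefSeq (GRCm38.p6, the same assembly as mm10) gave promoters for 6 of the 10 genes: Rspo1, Axin2, Sp5, Rnf43, Lef1 and Nkd1. The 250 bases before each annotated start were searched on both strands for the TCF/LEF core, spelled CTTTG and then 2 bases that are each A or T. Capitals mark the matches, and each sequence is read 5′ to 3′ on the plus strand, at chr2:70474673-70474922 for Sp5, chr11:108920099-108920348 for Axin2 and chr4:124986180-124986429 for Rspo1.
Sp5: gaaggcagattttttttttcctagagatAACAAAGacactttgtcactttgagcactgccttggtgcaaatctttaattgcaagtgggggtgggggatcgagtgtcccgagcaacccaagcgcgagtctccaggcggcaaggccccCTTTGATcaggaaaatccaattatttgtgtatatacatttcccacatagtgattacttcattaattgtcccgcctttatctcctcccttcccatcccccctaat
Axin2: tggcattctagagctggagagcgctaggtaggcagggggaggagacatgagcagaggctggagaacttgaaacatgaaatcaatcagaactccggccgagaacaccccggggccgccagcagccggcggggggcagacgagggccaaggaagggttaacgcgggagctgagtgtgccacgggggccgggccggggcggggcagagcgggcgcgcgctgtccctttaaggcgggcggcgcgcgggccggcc
Rspo1: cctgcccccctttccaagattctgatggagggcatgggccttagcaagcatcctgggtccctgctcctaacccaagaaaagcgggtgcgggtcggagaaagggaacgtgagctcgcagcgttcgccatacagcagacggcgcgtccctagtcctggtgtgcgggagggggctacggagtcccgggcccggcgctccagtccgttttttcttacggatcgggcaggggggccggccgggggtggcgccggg
The Sp5 promoter held 2 matches, which begin 222 and 104 bases before the start, and the first lies on the minus strand as AACAAAG. The Axin2 and Rspo1 windows held none, and among the 10 member promoters, 4 of them alternative starts of Lef1, the only other match was in 1 of those 4. Of all 32851 promoters in the table, 14.8% held at least 1 match and 1.4% held 2 or more. A match is a description of these letters and not a site of binding.

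All 3 R-spondin transcripts fell in the cKO-labelled samples. Rspo1 (ENSMUSG00000028871.7, chromosome 4, 124986430 to 125009099, plus strand) had 0.46 and 1.50 TPM in cKO-labelled replicates 4 and 5, against 53.7 and 58.8 TPM in control replicates 8 and 9. Both cKO-labelled values were far below both controls, and they rested on 9 and 32 reads against 1329 and 1264 reads. The cKO-labelled mean was 1.73% of the control mean, and the log2 fold change on the log2(TPM + 1) scale was -4.91 ± 0.39 (SE; limma adjusted p = 5.12e-33). In that fit the spread is pooled over all genes, so its standard errors do not reflect the spread of a gene's own libraries. Rspo1 passed in each of 13 alternatives, with a limma adjusted p from 3.37e-40 to 0.0199, the last with no filter on low TPM. In bulk tissue, fewer cells of a type and less RNA per cell cannot be told apart, here and for every level below.

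Rspo2 (ENSMUSG00000051920.7, chromosome 15, 43020794 to 43170826, minus strand) had 0.36 and 0.34 TPM in the cKO-labelled samples, against 13.3 and 25.7 TPM in the controls. The cKO-labelled samples had 19 reads each, with an exact Poisson interval of 11.4 to 29.7 that covers counting error only. The controls differed almost as much as their lower value, while the cKO-labelled pair lay close together, and the groups did not overlap. Its log2 fold change was -3.85 ± 0.37 (SE, limma adjusted p = 8.69e-22). Rspo2 passed in each of 13 alternatives, with a limma adjusted p from 3.67e-26 to 0.0285, the last with no filter on low TPM.

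Rspo3 (ENSMUSG00000019880.10, chromosome 10, 29452416 to 29535867, minus strand) had 6.54 and 9.41 TPM in the cKO-labelled samples, on 206 and 321 reads, against 33.9 and 47.9 TPM in the controls. It kept 19.5% of its control mean, a larger share than the 1.73% of Rspo1 and the 1.80% of Rspo2. Its log2 fold change was -2.22 ± 0.38 (SE; limma adjusted p = 3.85e-07). That call was lost without cKO-labelled replicate 4 (adjusted p = 0.288, from 7.26e-08 to 0.288 across 13 alternatives).

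The make-up of the R-spondin transcripts differed as well. Rspo1, Rspo2 and Rspo3 together came to 7.36 and 11.3 TPM in the cKO-labelled samples and 100.9 and 132.5 TPM in the controls. Rspo3 made up 88.9% and 83.7% of that sum in the cKO-labelled samples, against 33.6% and 36.2% in controls. Within each library, Rspo3 was 14.4 and 6.29 times as abundant as Rspo1 in cKO-labelled replicates 4 and 5, while in control replicates 8 and 9 it was 0.632 and 0.815 times as abundant. With 2 libraries a group, the smallest p an exact permutation test allows is 0.333, so this shift of shares was not tested.

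**Figure D1:**
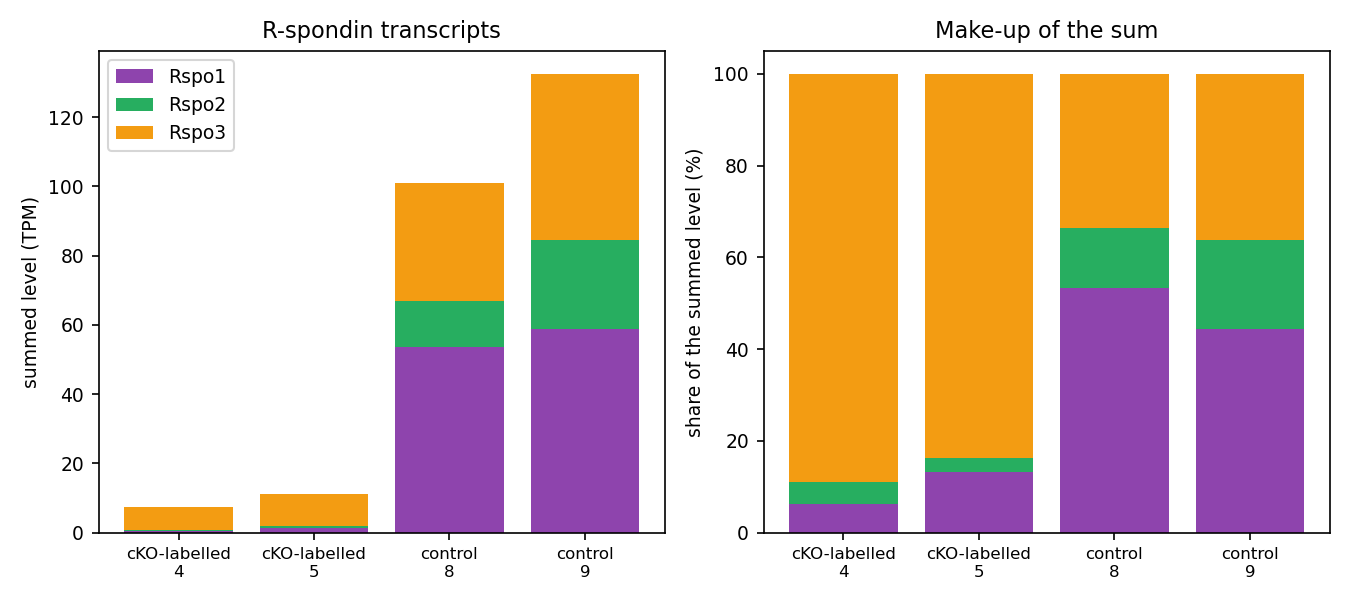
Summed level (left, TPM) and share of the sum (right, %) of Rspo1, Rspo2 and Rspo3 in each library, cKO-labelled replicates 4 and 5 left of control replicates 8 and 9. The sum is 7.36 and 11.3 TPM in the cKO-labelled samples and over 100 TPM in both controls, and Rspo3 makes up over 80% of it only in the cKO-labelled samples.

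Rspo4, the remaining R-spondin gene, had 0 and 0.08 TPM in cKO-labelled samples and 0.26 and 0.08 TPM in the controls. Lgr4, the R-spondin receptor gene with the highest level here, had 4.28 and 4.11 TPM against 3.42 and 6.65 TPM in the controls, and it did not pass (log2 fold change -0.16, limma adjusted p = 0.818). Lgr5 and Lgr6 stood under 0.3 TPM in every library, below the mean of 1 TPM set for testing.

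Axin2, Sp5 and Rnf43 fell with the R-spondins. Axin2 encodes a scaffold of the β-catenin destruction complex and is a common readout of the pathway (ENSMUSG00000000142.15, chromosome 11, 108920349 to 108950783). It had 18.5 and 16.9 TPM in the cKO-labelled samples, against 47.1 and 47.4 TPM in the controls. The libraries of each group lay close together, at 17.7 ± 1.12 TPM in cKO-labelled samples and 47.3 ± 0.21 TPM in the controls (SD, n = 2 each), and the groups did not overlap. The log2 fold change was -1.37 ± 0.36 (SE; limma adjusted p = 0.00438). The value held between -1.57 and -1.21 over 13 alternatives, but the call was lost with no filter on low TPM (adjusted p = 0.0856) and without cKO-labelled replicate 4 or 5 (0.991 and 0.704), in a range of 0.00208 to 0.991.

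Sp5, a zinc finger transcription factor gene induced by Wnt signals (ENSMUSG00000075304.2, chromosome 2, 70474923 to 70477729), was at 1.17 and 0.13 TPM in the cKO-labelled samples, against 5.67 and 4.60 TPM in the controls. The cKO-labelled values rested on 25 and 3 reads and those of controls on 152 and 107, so the gap between the cKO-labelled replicates is wide in proportion while both lie below both controls. Its log2 fold change was -1.97 ± 0.35 (SE; limma adjusted p = 1.47e-06), and it was -3.27 with a pseudocount of 0.1. The call was lost with no filter on low TPM (adjusted p = 0.105) and without cKO-labelled replicate 5 (0.264), from 1.08e-07 to 0.264 across 12 alternatives.

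The ubiquitin ligase genes Rnf43 and Znrf3, whose products are the targets of R-spondins, differed in whether they passed. Rnf43 (ENSMUSG00000034177.15, chromosome 11, 87662722 to 87735539) was at 0.18 and 0.26 TPM in the cKO-labelled samples, against 3.03 and 2.33 TPM in the controls, or 8.25% of the control mean. It fell by 1.59 on the log2 scale (SE 0.32; limma adjusted p = 5.9e-05), and the log2 fold change was -3.11 with a pseudocount of 0.1. The call was lost without cKO-labelled replicate 4 (adjusted p = 0.0758, from 9.17e-06 to 0.0758 across 12 alternatives). Znrf3 (ENSMUSG00000041961.14, chromosome 11, 5276324 to 5444847) was at 5.70 and 7.06 TPM in the cKO-labelled samples, against 11.6 and 10.0 TPM in the controls. Its groups did not overlap, but it did not pass (log2 fold change -0.68, 95% interval -1.45 to 0.08; limma adjusted p = 0.274), and the difference between the changes of the 2 ligase genes was not tested.

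Lef1, Nkd1 and Notum complete the list. Lef1 encodes a TCF/LEF factor that is itself a Wnt target (ENSMUSG00000027985.14, chromosome 3, 131110471 to 131224356), and it had 5.83 and 8.41 TPM in the cKO-labelled samples, against 17.5 and 13.9 TPM in the controls. Its values did not overlap between groups, and the log2 fold change was -1.05 (95% interval -1.81 to -0.29), just short of the threshold (limma adjusted p = 0.0709). Across 13 alternatives the log2 fold change ran from -1.28 to -0.82. Lef1 passed with no intensity trend (limma adjusted p = 0.0438). It also passed without control replicate 8, at -0.895, a fit in which far more of all tested genes passed too, and in no other alternative. Nkd1, a Dishevelled-binding inhibitor gene (ENSMUSG00000031661.12, chromosome 8, 88521354 to 88594884), was at 24.6 and 28.6 TPM in the cKO-labelled samples, against 45.1 and 28.2 TPM in the controls. Control replicate 9 lay between the cKO-labelled samples, so the groups overlapped, and the log2 fold change of -0.42 did not pass (95% interval -1.12 to 0.29; limma adjusted p = 0.484). It was -0.75 without control replicate 9 (adjusted p = 0.0634) and -0.085 without control replicate 8 (0.749), from 0.0634 to 1 across 13 alternatives.

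Notum, which encodes a secreted enzyme that removes the lipid from Wnt proteins (ENSMUSG00000042988.10, chromosome 11, 120653788 to 120661175), was at 0.04 and 0 TPM in the cKO-labelled samples, against 0.68 and 0.52 TPM in the controls. These levels stand for 1 read and 0 reads against 21 and 14 reads. Per read of depth, the ratio of cKO-labelled to control was 0.033 (95% exact interval 0.00080 to 0.19, counting error only), and the mean level was below that set for testing. With no filter on low TPM, Notum was at -0.65 on the log2 scale (limma adjusted p = 0.0615).

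**Figure D2:**
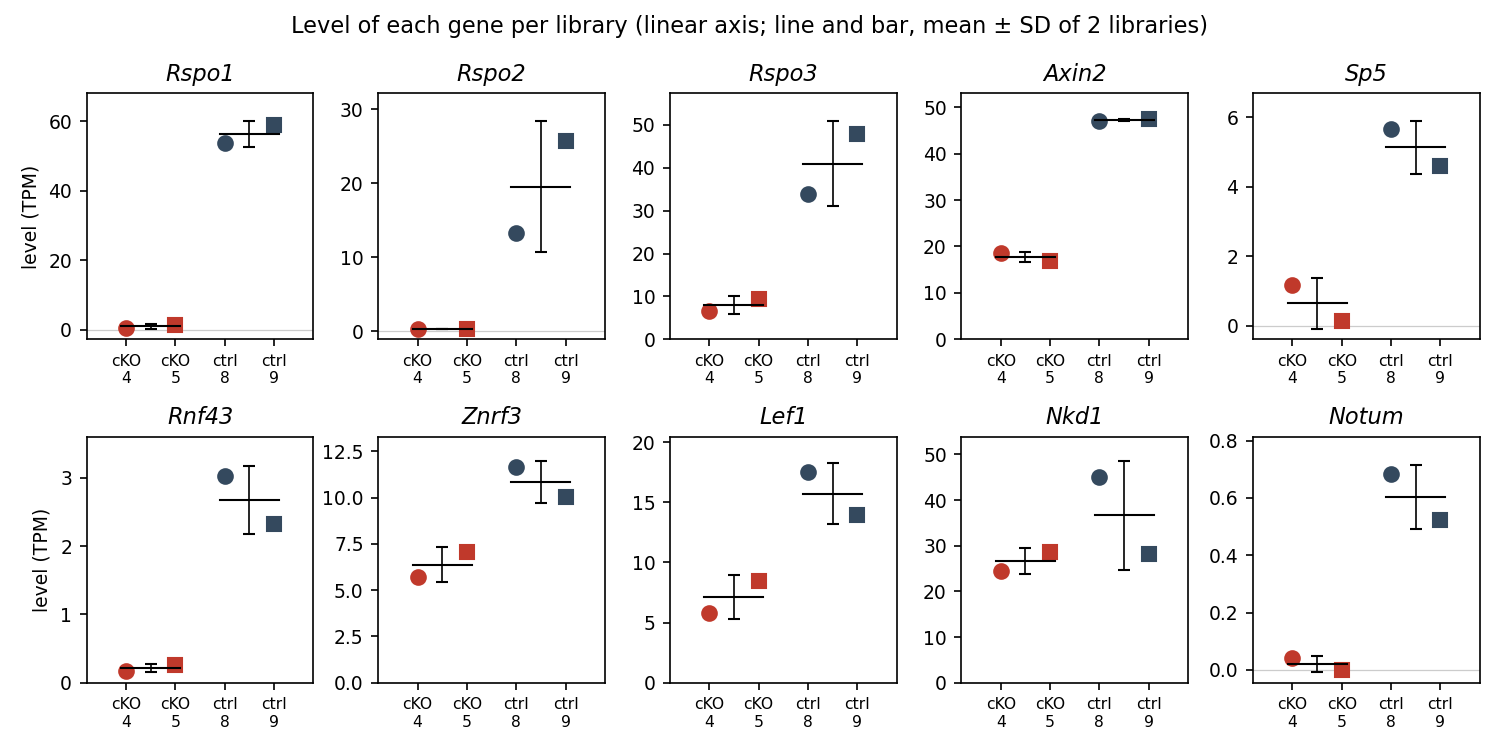
Level of each of the 10 genes (TPM, linear axes that differ between panels) in cKO-labelled replicates 4 and 5 (red) and control replicates 8 and 9 (blue-grey), with the mean and SD of each group of 2. Every gene but Nkd1 has both cKO-labelled samples below both controls; in Nkd1, control replicate 9 at 28.2 TPM lies between the cKO-labelled samples.

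Of the 9 genes tested, 6 fell and none rose (limma, adjusted p under 0.05): Rspo1, Rspo2, Rspo3, Axin2, Sp5 and Rnf43. Among all 15107 tested genes, 8.14% passed in either direction, 5.24% lower and 2.9% higher. The median log2 fold change of the 9 was -1.59, against -0.16 for all tested genes. As the list was chosen with earlier results of these data known, comparisons with all tested genes are descriptions only. The groups did not overlap for 8 of the 9, all lower, whereas 57.6% of all tested genes did not overlap, 34.1% with the cKO-labelled samples lower and 23.5% with them higher. Median-of-ratios scaling and quantile normalization brought the median of all genes to -0.01 and changed the share of higher genes among the calls from 35.6% to 52.6% and 57.2%, and the same 6 genes passed under both.

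**Figure D3:**
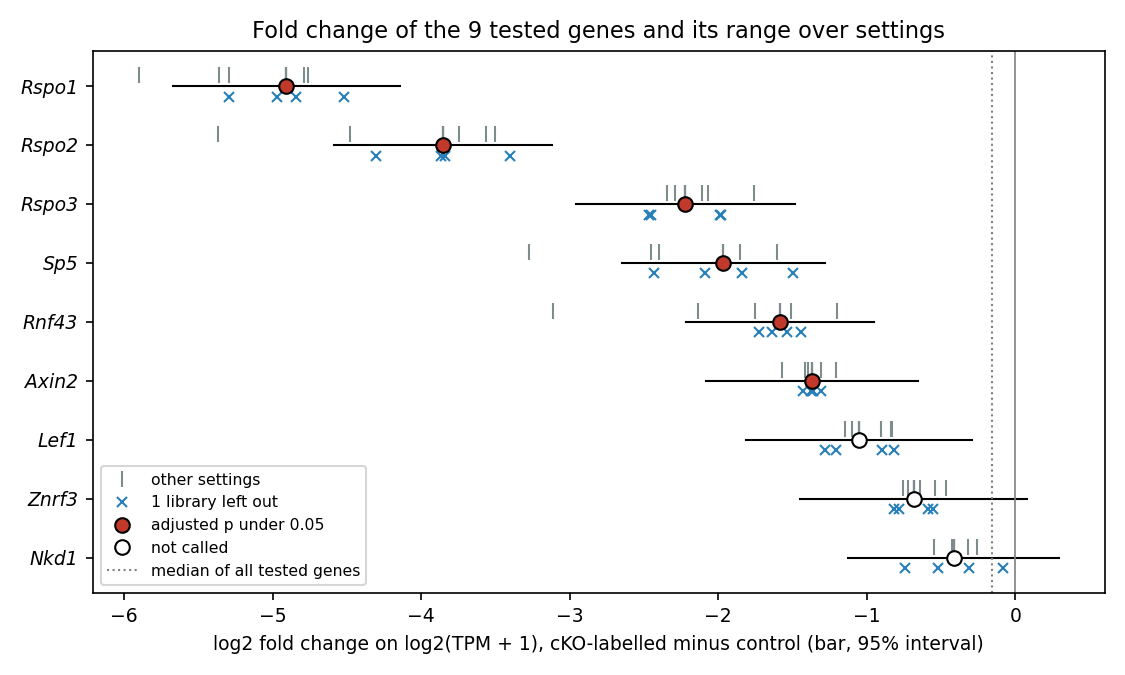
Log2 fold change on the log2(TPM + 1) scale, cKO-labelled minus control, of the 9 tested genes with its 95% interval; red points passed at an adjusted p under 0.05, ticks show other settings and crosses fits with 1 library left out. The values run from -4.91 for Rspo1 to -0.42 for Nkd1, all below the median of all tested genes at -0.16 (dotted line), and Rnf43, Rspo2 and Sp5 move most with the pseudocount.

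The order of the levels differed between the groups. In cKO-labelled samples the mean levels ran from Nkd1 at 26.6 TPM through Axin2 at 17.7, Rspo3 at 7.98, Lef1 at 7.12 and Znrf3 at 6.38 to Rspo1 at 0.98, Sp5 at 0.65, Rspo2 at 0.35, Rnf43 at 0.22 and Notum at 0.02 TPM. In controls they ran from Rspo1 at 56.3 TPM through Axin2 at 47.3, Rspo3 at 40.9, Nkd1 at 36.6, Rspo2 at 19.5, Lef1 at 15.7 and Znrf3 at 10.8 to Sp5 at 5.13, Rnf43 at 2.68 and Notum at 0.60 TPM. Neighbours whose libraries overlapped were, in the cKO-labelled group, Rspo3 with Lef1, Lef1 with Znrf3, Rspo1 with Sp5 and Sp5 with Rspo2. In the control group they were Axin2 with Rspo3, Rspo3 with Nkd1 and Rspo2 with Lef1.

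The rest of the pathway was read from lists of its parts that hold none of the 10 genes. Of 12 tested genes for Wnt ligands and their secretion, 6 fell and 1 rose (median log2 fold change -1.17). Wnt8b, a ligand of the hem and medial pallium, had 0.45 and 1.20 TPM in cKO-labelled samples, against 45.7 and 45.3 TPM in the controls. Wnt3a, the hem ligand needed for hippocampal growth, had 0.07 and 0.03 TPM against 23.1 and 16.7 TPM, and Wnt2b had 0.05 and 0.09 TPM against 12.5 and 16.5 TPM. Wnt9a (-3.01), the Wnt carrier gene Wls (-2.74) and Wnt5a (-1.66) were the other genes that fell, and the call of Wnt5a was lost with no filter on low TPM and without cKO-labelled replicate 4 or 5. Wnt7a, a ligand of cortical progenitors, rose, with 93.4 and 80.5 TPM against 47.8 and 38.0 TPM (log2 fold change 1.01, limma adjusted p = 0.0473). That call ended in 8 of 13 alternatives, with an adjusted p of 0.0501 at a pseudocount of 0.1 in a range of 0.00188 to 1. Wnt7b, the most abundant ligand gene, had 211 and 154 TPM against 158 and 71.0 TPM, with overlapping groups and no call, and the acyltransferase gene Porcn had 31.6 and 32.0 TPM against 27.9 and 19.9 TPM and did not pass.

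Receptors and inhibitors outside the cell held further genes that fell, and the lists of genes acting inside the cell held none in this fit. Axin2 and Sp5, which fell and whose products act inside the cell, are among the 10 genes kept out of these lists. Of 15 receptor genes 4 fell and none rose: Fzd10 (-2.63), Fzd9 (-1.63), Ror1 (-1.54) and Fzd6 (-1.38). Fzd10, a Frizzled gene of the dorsal midline, had 0.54 and 0.39 TPM in cKO-labelled samples, against 10.6 and 6.08 TPM in the controls. The abundant Fzd2 and Fzd8 did not pass, at 0.24 and 0.68. With no filter on low TPM, and without cKO-labelled replicate 4 or 5, the calls of Fzd9 and Fzd6 were lost. That of Fzd6 was also lost without control replicate 9. Without control replicate 8 the receptor list had more calls, in both directions, but so did all tested genes. Of 10 tested genes of secreted antagonists 5 fell and none rose: Sostdc1 (-3.38), Wif1 (-2.86), Frzb (-2.02), Dkk2 (-1.65) and Dkk3 (-1.56). The antagonist genes Sfrp1 and Draxin, the most abundant that did not pass, had 222 and 319 TPM against 271 and 375 TPM, and 120 and 111 TPM against 125 and 82.3 TPM. With cKO-labelled replicates 4 and 5 left out in turn, 2 and 3 of the antagonist calls remained, Sostdc1 and Wif1 in both, and only these 2 remained with no filter on low TPM.

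Of 15 genes for cytoplasmic signalling, 1 rose and none fell (median 0.09). The riser was Apc2, a neuronal relative of the tumour suppressor APC, with 240 and 188 TPM in cKO-labelled samples, against 119 and 63.3 TPM in the controls (log2 fold change 1.28, limma adjusted p = 0.00528). Ctnnb1, the gene of β-catenin itself, had 514 and 497 TPM against 536 and 882 TPM, and Gsk3a had 258 and 224 TPM against 209 and 146 TPM, and neither passed. None of the 12 nuclear factors passed in limma, and 1, Tcf7, had an unadjusted p under 0.05 (median 0.21). Of 9 other Wnt target genes tested, 2 fell and none rose: Tnfrsf19, a Wnt-induced receptor gene, at -2.04, and Apcdd1, which encodes an inhibitor of Wnt reception, at -1.12. All 3 calls were lost with no filter on low TPM, those of Apc2 and Apcdd1 also without cKO-labelled replicate 4 or 5. That of Apcdd1 was also lost after median-of-ratios scaling, and that of Tnfrsf19 without cKO-labelled replicate 4. Without control replicate 8 the cytoplasmic, nuclear and other target lists had more calls, but so did all tested genes. The abundant targets Ccnd1 and Id2, a cell cycle gene and a gene that many signals induce, stood at 0.71 and 0.05 and did not pass. Tcf7 and Nkd2, relatives of Lef1 and Nkd1 that were chosen after their values were seen, stood at -0.86 and -1.03 and did not pass (limma adjusted p = 0.158 and 0.0691).

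**Figure D4:**
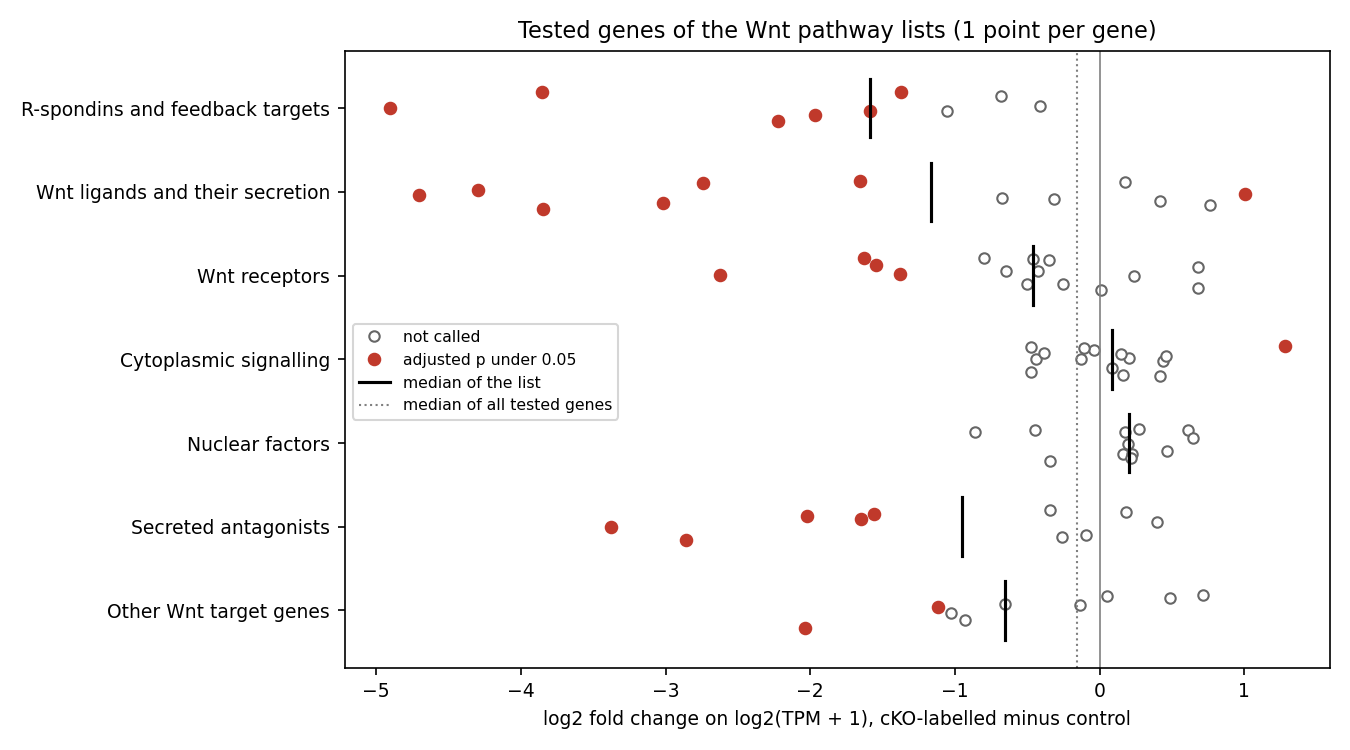
Log2 fold change, cKO-labelled minus control, of each tested gene (points; red, adjusted p under 0.05) in the 10-gene list and 6 other lists of the Wnt pathway, with the median of each list (black line) and of all tested genes (dotted). Points below -1 lie among R-spondins, feedback genes, ligands, receptors, antagonists and other targets. Genes of the cytoplasmic and nuclear lists, which hold none of the 10, lie between -0.86 and 1.28.

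The genes whose pattern over the 4 libraries was most like that of a member were found by the Euclidean distance between centred log2(TPM + 1) profiles. Nearest to Rspo1 were Wnt8b (distance 0.26), the heparan sulfatase gene Sulf1 (0.81) and the proteoglycan gene Dcn (0.85). Nearest to Rspo2 were Wnt2b (0.38), the hem and roof plate transcription factor gene Lmx1a (0.43) and Sostdc1 (0.56). Nearest to Rspo3 were the gap junction gene Gja1 (0.125), the cation channel gene Trpm3 (0.14) and Iqcd (0.17). Gja1 had 8.50 and 11.1 TPM in cKO-labelled samples, against 41.8 and 62.9 TPM in the controls. Nearest to Axin2 were Fli1 (0.07), Cavin2 (0.075) and Galnt12 (0.11), and nearest to Lef1 were Col4a6 (0.05), Zic2 (0.14) and Dcdc2b (0.15). With 4 libraries in 2 groups, these profiles share little beyond the group difference.

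Markers of several cell types moved with these genes, and their part in the results above was not tested. All 8 tested markers of the cortical hem fell, and the list of 9 summed to 1.30 and 5.65 TPM in cKO-labelled samples, against 108.9 and 98.2 TPM in the controls. Gdf7 was at 0 in both cKO-labelled samples, but at only 0.33 and 0.13 TPM in the controls, on 6 and 2 reads. With Gdf7, 8 of the 9 were under 1 TPM in both cKO-labelled samples, and Gdf7 alone was so in both controls. Bmp7, a BMP ligand gene, was the most abundant of the list, with 0.51 and 4.74 TPM against 29.3 and 21.6 TPM. Wnt3a and Wnt2b stand in this list as well as among the ligands. Rspo3 exceeded the summed hem list in both cKO-labelled samples, at 6.54 and 9.41 TPM, and was below it in both controls.

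All 8 tested markers of the choroid plexus fell, and that list of 10 summed to 8.98 and 11.7 TPM in cKO-labelled samples, against 2011 and 2201 TPM in the controls. Most of the control level was Ttr, the transthyretin gene, at 1862 and 2018 TPM. Of 9 tested meningeal markers 8 fell, and the list summed to 116 and 114 TPM against 584.8 and 365.1 TPM. Crabp2, a retinoic acid binding protein gene that did not pass, made up 109 and 111 TPM of the cKO-labelled sums. The collagen gene Col3a1 had 2.83 and 1.10 TPM in cKO-labelled samples, against 128.5 and 65.0 TPM in the controls. Of 10 endothelial markers, which matter here because brain vessels also use Wnt/β-catenin signals, 3 fell and none rose (median -0.83), and the list summed to 116 and 97.4 TPM against 179 and 115 TPM. Cldn5, Cdh5 and Esam, the 3 most abundant, did not pass, and no endothelial marker was at 0. None of the 3 endothelial calls remained after quantile normalization, with no filter on low TPM, or without cKO-labelled replicate 4 or 5. These 3 genes lay below the stricter filter, a mean TPM of at least 5, and were not tested there.

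All 9 markers of the ganglionic eminence rose, to sums of 489 and 211 TPM in cKO-labelled samples, against 27.8 and 114 TPM in the controls. Dlx2 had 152 and 72.5 TPM against 6.89 and 27.4 TPM, so the libraries differed within each group as well. Of these 9, 1 still passed without cKO-labelled replicate 4, 1 after removal of the GC trend, 4 without control replicate 8 and none with no filter on low TPM. Of 9 neocortical progenitor markers 2 fell and none rose. Emx2 had 42.0 and 52.3 TPM against 111.9 and 142.6 TPM (log2 fold change -1.41, limma adjusted p = 0.00158). The dorsal patterning gene Lhx2 had 160.9 and 190.4 TPM against 377.5 and 368.8 TPM (log2 fold change -1.09, limma adjusted p = 0.0297). The progenitor filament genes Nes and Vim did not pass. That call of Lhx2 ended after median-of-ratios scaling, with no filter on low TPM and without cKO-labelled replicate 4 or 5. None of 6 projection neuron markers, 5 Cajal-Retzius markers and 2 tested thalamic markers passed in limma, and 2, 0 and 2 of them had an unadjusted p under 0.05. Of 4 intermediate progenitor markers 1 rose, with no call in 8 of 13 alternatives, and 2 of 6 macrophage and microglia markers fell.

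**Figure D5:**
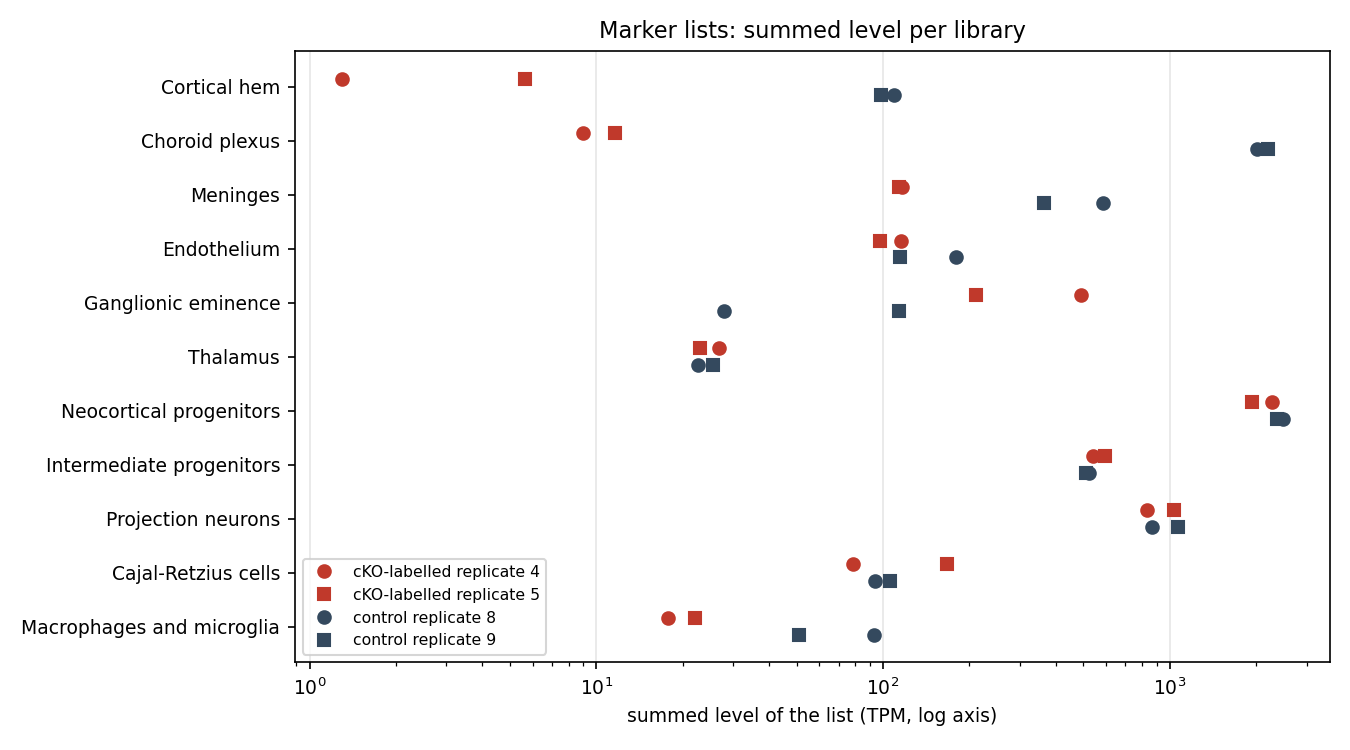
Summed level (TPM, log axis) of each marker list in cKO-labelled replicates 4 and 5 (red) and control replicates 8 and 9 (blue-grey). Hem, choroid plexus, meningeal, macrophage and neocortical progenitor sums are lower in both cKO-labelled samples than in both controls. Ganglionic eminence and intermediate progenitor sums are higher in both, the latter at 539.9 and 595.2 TPM against 524.5 and 508.9 TPM. Endothelial, thalamic, projection neuron and Cajal-Retzius sums overlap.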

How the data were processed

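RNA of 4 mouse cortex libraries at E13.5 was sequenced after preparation with a stranded total RNA kit, per the labels' protocols, with STAR and mm10 named in the submitters' processing notes. The authors deposited TPM values, and each column sums to 1000000; the sources used here name neither the gene counter nor the annotation. Symbols that a spreadsheet had turned into dates (27) were restored from their IDs. TPM multiplied by GENCODE M21 merged exon length gave whole reads, within 0.05, for 100% of values above 0 in each library; the annotation is inferred from this fit.

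The 15107 genes averaging at least 1 TPM were tested on log2(TPM + 1) with limma 3.58.1 in R 4.3.3, two-sided, with an intensity trend and Benjamini-Hochberg adjustment. A pseudocount of 1 understates changes of low genes. Because limma estimated infinite prior degrees of freedom, the spread was pooled over genes. The fit was tested on simulated data, in which noise was independent and had the same spread for every gene and library. That test therefore does not cover library-wide shifts such as the GC deviation of control replicate 9. Alternatives were other pseudocounts, filters, scalings and empirical Bayes settings, removal of each library's GC trend (a spline with 5 degrees of freedom), and leaving out each library.

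The rule for named genes took all 10 genes, Upf2, and up to 5 called and 2 abundant uncalled genes of each pathway list. It also took all 4 genes of the R-spondin partner list and the 3 nearest profiles to Rspo1, Rspo2, Rspo3, Axin2 and Lef1. From the hem, choroid plexus, meningeal, endothelial, ganglionic eminence and neocortical progenitor lists it took up to 3 abundant genes. The other marker lists are given as counts and sums. Wnt5a, Wnt7a, Tcf7, Nkd2, Gdf7, Emx2, Wnt6, Wnt10a, Wnt10b, Dkk1, Kremen2 and Sost were added after their values were seen. The members and lists were chosen with earlier results of these data known. Where a fit leaves 1 library in a group, that library is assumed to vary like the other group.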

Additional observations from a re-analysis of the deposited data

How the results depend on the processing

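No paired analysis was possible because the groups share no replicate number. The count of called genes was 1229, with 178 under no filter on low TPM, 642 at a mean TPM of at least 5, and 176 to 7379 when 1 library was left out. The count of members called was 6, and 3 to 7 with 1 library left out, and no member changed direction in any alternative. Of 116 member values under alternatives, 107 are counted as the same, 7 lost the call and 2 gained it. The 107 kept their side of the threshold, apart from 1 value of Notum. Notum had no call in the main test and is counted by its unchanged log2 fold change. Among the other named genes followed across alternatives, 8 changed direction, none of them called in the main test, and the cause was not tested. With 1 library left out, the log2 fold change ran from -0.26 to 0.52 for Upf2, -0.56 to 0.23 for Lgr4, -0.35 to 0.45 for Id2, -0.42 to 0.71 for Cldn5, -0.10 to 0.41 for Nes, -0.12 to 0.48 for Draxin, -0.69 to 0.28 for Esam and -0.52 to 0.00 for Sfrp1. Quantile normalization put Lgr4 at 0.12 and Id2 at -0.007, and removal of the GC trend put Lgr4 at 0.23, Cldn5 at -0.25 and Nes at -0.073. Notum, Sp5 and Rnf43 have no value at the stricter filter. Depth limits these 3 genes in the cKO-labelled samples, where they rest on 0 to 25 reads each. Rspo1, on 9 and 32 reads, and Rspo2, on 19 reads in each cKO-labelled sample, share that limit.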

Other observations

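Some Wnt pathway genes of the lists lay below the mean of 1 TPM set for testing. Sost, Wnt10a, Wnt6, Dkk1 and Lgr5 had both cKO-labelled libraries below both controls. Kremen2 and Wnt10b had both above both controls, and in the rest, Notum aside, the groups overlapped. Apart from Lgr5 and Notum, the genes named here were chosen after their values were seen. Kremen2 rested on 7 and 16 reads in cKO-labelled libraries and on 5 and 3 reads in controls. Wnt10b rested on 1 and 2 reads in cKO-labelled libraries and on 0 reads in both controls. Sost, a secreted antagonist gene known from bone, had 0.05 and 0.09 TPM in cKO-labelled libraries, on 1 and 2 reads, against 1.48 and 1.35 TPM in controls, on 39 and 31 reads. Wnt10a had 0.60 and 0.07 TPM in cKO-labelled libraries, on 15 and 2 reads, against 1.24 and 1.06 TPM in controls. Wnt6 had 0 and 0.04 TPM in cKO-labelled libraries, on 0 reads and 1 read, against 1.43 and 0.16 TPM in controls, so its control level rested mostly on replicate 8.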
